A study of Mus musculus with 12 samples.

Results

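The genes described here were 10 canonical targets of Wnt/β-catenin signalling, most of which also act back on the pathway: Axin2, Nkd1, Notum, Znrf3, Rnf43, Lgr5, Sp5, Tbx3, Tcf7 and Lef1. They were taken as a named list, found in the count table by matching its Entrez gene identifiers to mouse symbols, and all 10 were present among 27179 genes. Each of 12 mice gave 1 bulk RNA-seq library of its liver, and the mice formed 4 groups of 3. Mice were given a chow diet (CD) or a low-protein diet (LPD) and were injected through the tail vein, under hydrodynamic pressure, with either empty vector (Vec) or plasmids for 2 oncogenes, human c-MET and β-catenin lacking its N-terminus. Vec and c-MET/β-catenin livers were thus taken on each diet, and the question was how the diet changes what the oncogenes do to the liver. Per the study's methods, the mice were young adult males of the strain written there as C57/Bl3, while the text on the model names a mixed 129/Ola and C57BL/6 background, the diet began before the injection and went on after it, and all groups were sampled when CD oncogene mice reached their end point, after a short fast. The labels give no age and no sex. The oncogenes were driven by the EF1α promoter and inserted by the Sleeping Beauty transposase, so that only those hepatocytes that took up plasmid carry them and the rest of each liver is unmodified tissue.

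In the canonical Wnt pathway, a Wnt ligand binds a Frizzled receptor and its co-receptor Lrp5 or Lrp6, which stops the destruction complex built on Axin from marking β-catenin for degradation. β-catenin then enters the nucleus, binds the TCF/LEF factors and switches on target genes. Several of those targets are brakes on the pathway, so their mRNA is a common readout of its activity. In the healthy liver the pathway is active in hepatocytes around the central vein, fed by Wnt2, Wnt9b and Rspo3 from the endothelium, and it sets the pericentral programme that includes glutamine synthetase (Glul). β-catenin without its N-terminus lacks the residues at which it is marked, and so signals without a ligand.

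Libraries held 19476209 to 31990267 counted reads. Of the 27179 genes, 13947 passed the filter on low counts and were tested with edgeR's quasi-likelihood test, with p-values adjusted over all of them by the Benjamini-Hochberg method and called at an adjusted p under 0.05. Levels are CPM, counts relative to library size after TMM scaling, fold changes are on the log2 scale with their standard error (SE), and n is 3 livers a group throughout. The labels name the cell type as hepatocyte although the tissue was whole liver. The sum of 8 hepatocyte markers was 116800 to 119200 CPM in CD Vec and 103200 to 115000 in CD c-MET/β-catenin. It was 104300 to 132700 in LPD Vec and 78060 to 112400 in LPD c-MET/β-catenin. On CD, 3 of the 8 were called lower and 1 higher, beside 16.7% and 18.7% of all genes tested. In such bulk samples, more cells with an active pathway and more RNA of its targets per cell cannot be told apart. A header line of the count table carries dataset numbers that fall into 3 runs, whose meaning is not given. The first run held only replicates 1 and 2 of CD c-MET/β-catenin. The third held only Vec livers, replicates 1 and 2 of CD Vec and replicate 1 of LPD Vec. The second run held 1 library of each CD group, 2 of LPD Vec and all 3 of LPD c-MET/β-catenin, so values within it are given below for each comparison. Runs and groups thus partly coincide, and on CD only 1 library per injection shares a run with the other injection. The count table, made on the mouse genome, has no entry for the human transgenes. Whether their reads add to those of mouse Ctnnb1 and Met was not tested. Ctnnb1, which encodes mouse β-catenin, had a log2 fold change of 0.33 on CD (adjusted p = 0.109) and 0.16 on LPD (adjusted p = 0.808), and Met had -0.26 (adjusted p = 0.349) and -0.16 (adjusted p = 0.88). On CD, Ctnnb1 was called with total counts (0.62, adjusted p = 0.0111) and when replicate 1 of its oncogene group was left out (0.45, adjusted p = 0.03). Met was called without CD Vec replicate 2 (-0.48, adjusted p = 0.0349), and turned to 0.02 with total counts and 0.11 with a clock-gene covariate, the first principal component of the clock genes. That covariate was between 0.982 and 1.01 in CD Vec livers and at -2, 0.415 and -1.86 in CD c-MET/β-catenin livers. It thus partly coincides with injection on CD, and what a call lost with it means was not tested.

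On CD, the test of oncogene against Vec livers called 9 of the 10 genes higher, by between 2.57-fold (Znrf3) and 35.1-fold (Lef1). Tbx3 was also higher, by 2.28-fold, but did not pass the threshold (adjusted p = 0.0593). Of all genes tested, 18.7% were called higher in this comparison. All 3 oncogene livers lay above all 3 Vec livers for each of the 10 genes, as they did for 22.2% of all genes. On LPD 4 of the 10 were called higher, Axin2, Nkd1, Sp5 and Lef1, against 1.15% of all genes tested. The log2 fold changes of the others were also above 0 but did not pass. Oncogene livers lay above Vec livers without overlap for 6 of the 10, against 13.5%. The median log2 fold change of the 10 genes was 3.05 on CD and 0.77 on LPD, beside medians of -0.01 and 0.01 over all genes tested. Lef1 passed the filter on low counts only because of the oncogene libraries, and without it the counts of calls were 8 of 9 on CD and 3 of 9 on LPD, with medians of 2.84 and 0.55. Lef1 is also among the genes whose livers did not overlap on either diet. The plot of CPM by liver shows the 4 groups for each gene.

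**Figure D1:**
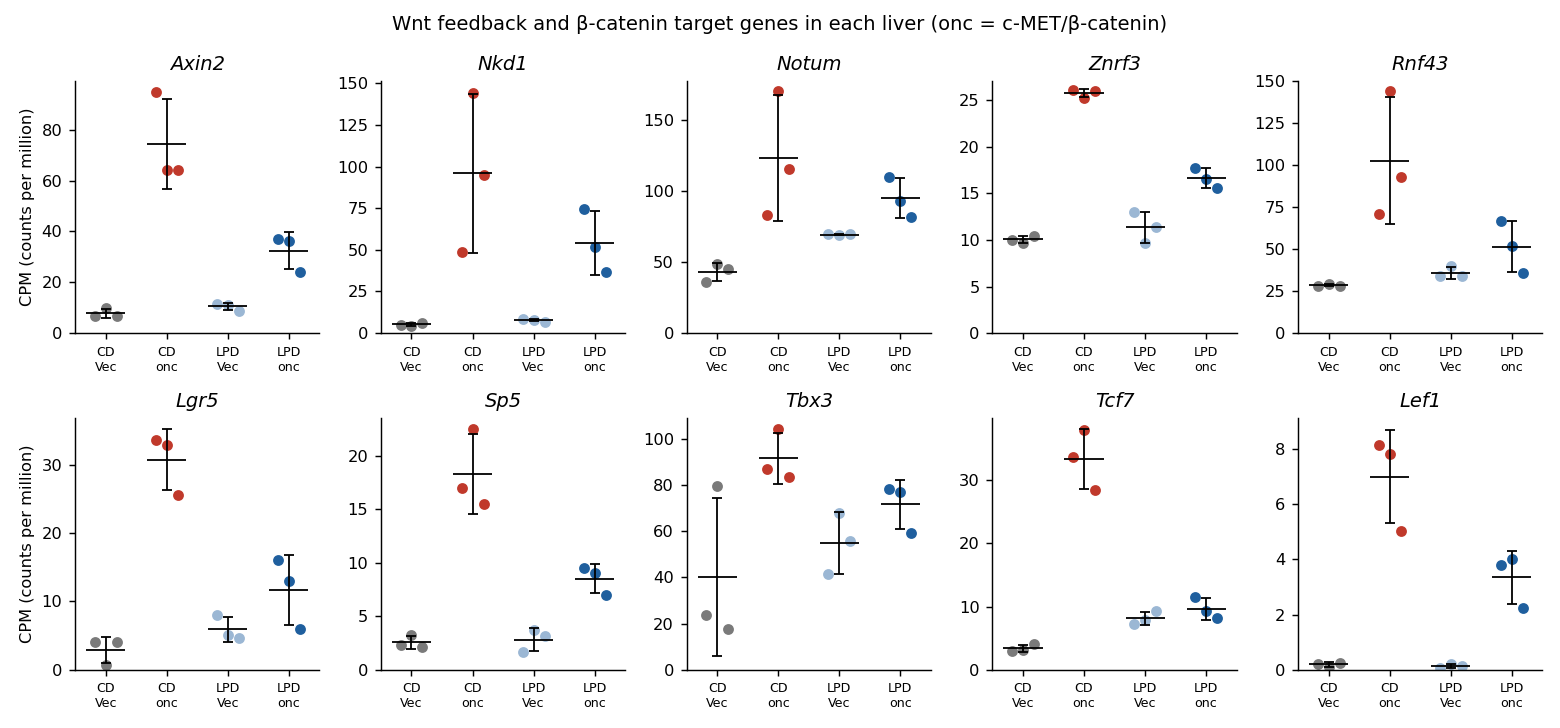
CPM of each gene in each of the 12 livers, on linear axes that start at 0, with 1 panel per gene and 1 point per liver; horizontal lines are group means and bars are SD (n = 3). In all 10 panels the 3 CD c-MET/β-catenin livers lie above the 3 CD Vec livers, while for Lgr5, Rnf43, Tbx3 and Tcf7 the LPD c-MET/β-catenin livers overlap LPD Vec.

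The intracellular brakes rose on both diets. Axin2 (Entrez 12006, chr11:108920349-108950783, plus strand; GRCm38 throughout), the scaffold of the destruction complex that is itself a target, was at 6.72, 9.95 and 6.66 CPM in CD Vec livers, 94.8, 64.2 and 64.2 in CD c-MET/β-catenin, 11.5, 11.1 and 8.87 in LPD Vec and 37.1, 36.3 and 24.1 in LPD c-MET/β-catenin. Its oncogene livers lay above the Vec livers of the same diet without overlap, and those on CD lay above those on LPD. The log2 fold change was 3.26 (SE 0.24, adjusted p = 9.61e-06) on CD and 1.63 (SE 0.23, adjusted p = 0.00485) on LPD. Nkd1 (Entrez 93960, chr8:88521354-88594884, plus strand), which binds Dishevelled and dampens the signal, was at 5.09, 4.04 and 6.25 CPM in CD Vec, 48.9, 144 and 94.9 in CD c-MET/β-catenin, 8.25, 7.90 and 6.92 in LPD Vec and 74.6, 51.8 and 36.4 in LPD c-MET/β-catenin. The Vec and oncogene livers were far apart on either diet, but the oncogene livers of CD and LPD overlapped, since the lowest CD liver was below 2 of the 3 LPD livers. Nkd1 rose by 4.22 (SE 0.4, adjusted p = 3.44e-05) on the log2 scale on CD and by 2.82 (SE 0.37, adjusted p = 0.00358) on LPD.

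Notum, Znrf3 and Rnf43, which act outside the cell or at its surface, rose on CD and did not pass the test on LPD. Notum (Entrez 77583, chr11:120653788-120661175, minus strand), a secreted enzyme that strips Wnt proteins of the lipid they need, was at 36.0, 48.6 and 44.8 CPM in CD Vec, 83.5, 171 and 115 in CD c-MET/β-catenin, 69.7, 69.1 and 69.7 in LPD Vec and 110, 93.3 and 82.1 in LPD c-MET/β-catenin. Already in Vec livers the LPD values stood above the CD values, and the oncogene livers were above the Vec livers on both diets. The log2 fold change was 1.52 (SE 0.22, adjusted p = 0.000376) on CD and 0.45 (SE 0.22, adjusted p = 0.482) on LPD. Znrf3 and Rnf43 are a related pair of membrane ubiquitin ligases that remove Frizzled receptors from the cell surface. Znrf3 (Entrez 407821, chr11:5276324-5444847, minus strand) was at 10.04, 9.67 and 10.5 CPM in CD Vec, 26.1, 25.3 and 26.02 in CD c-MET/β-catenin, 13.0, 9.67 and 11.4 in LPD Vec and 17.8, 16.6 and 15.6 in LPD c-MET/β-catenin. Its SE was the smallest of the 10 genes, with no overlap between oncogene and Vec livers on either diet and log2 fold changes on CD of 1.36 (SE 0.13, adjusted p = 3.44e-05) and on LPD of 0.55 (SE 0.13, adjusted p = 0.0633). On LPD Znrf3 passed with total counts (0.67, adjusted p = 0.0216), with DESeq2 (0.54, adjusted p = 0.00954) and without CD Vec replicate 2 (adjusted p = 0.0454). Rnf43 (Entrez 207742, chr11:87662722-87735539, plus strand) was at 28.2, 29.1 and 28.1 CPM in CD Vec, 70.7, 144 and 93.1 in CD c-MET/β-catenin, 33.8, 40.0 and 34.1 in LPD Vec and 66.5, 51.9 and 36.0 in LPD c-MET/β-catenin. One LPD oncogene liver, replicate 3, lay within the LPD Vec range. Rnf43 rose by 1.85 on the log2 scale (SE 0.26, adjusted p = 0.000266) on CD, and its change on LPD was 0.52 (SE 0.25, adjusted p = 0.482).

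Lgr5 (Entrez 14160, chr10:115450311-115587780, minus strand), the R-spondin receptor that keeps Znrf3 and Rnf43 away from Frizzled and so strengthens the signal, was at 4.02, 0.739 and 4.01 CPM in CD Vec, 33.7, 32.9 and 25.6 in CD c-MET/β-catenin, 8.06, 5.07 and 4.67 in LPD Vec and 16.1, 13.0 and 6.03 in LPD c-MET/β-catenin. The low CD Vec value belongs to replicate 2, and the lowest LPD oncogene liver was within the LPD Vec range. Lgr5 rose by 3.38 (SE 0.51, adjusted p = 0.000499) on the log2 scale on CD, with 0.98 (SE 0.47, adjusted p = 0.486) on LPD.

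Among the targets that are transcription factors, Sp5 rose on both diets and Tbx3 passed the test on neither. Sp5 (Entrez 64406, chr2:70474923-70477729, plus strand), a zinc-finger factor that is a direct target and restrains other targets, was at 2.29, 3.24 and 2.13 CPM in CD Vec, 17.0, 22.5 and 15.5 in CD c-MET/β-catenin, 1.63, 3.72 and 3.13 in LPD Vec and 9.53, 9.05 and 7.0 in LPD c-MET/β-catenin. The 4 groups separated into Vec, LPD oncogene and CD oncogene livers with no overlap between these 3 levels, and the log2 fold change was 2.84 (SE 0.3, adjusted p = 5.05e-05) on CD and 1.59 (SE 0.29, adjusted p = 0.0196) on LPD. The LPD call for Sp5 was lost, with adjusted p between 0.0604 and 0.0826, when replicate 1 or 3 of LPD Vec, or replicate 1 or 2 of its oncogene group, was left out, and with a term for the dataset-number runs (1.51, adjusted p = 0.075). Tbx3 (Entrez 21386, chr5:119670669-119684724, plus strand), a T-box repressor that marks pericentral hepatocytes, was at 23.6, 79.8 and 17.7 CPM in CD Vec, 87.3, 104 and 83.7 in CD c-MET/β-catenin, 41.4, 68.0 and 55.8 in LPD Vec and 78.6, 77.2 and 59.4 in LPD c-MET/β-catenin. One CD Vec liver, replicate 2, was at the level of the oncogene livers, and the log2 fold change was 1.19 (SE 0.45, adjusted p = 0.0593) on CD and 0.38 (SE 0.44, adjusted p = 0.867) on LPD. Without CD Vec replicate 2, the same library in which Lgr5 was low, the change of Tbx3 on CD was 2.15 (adjusted p = 0.000168). It was also called with total counts (1.5, adjusted p = 0.0183), DESeq2 (1.18, adjusted p = 0.0207) and the replicate block (1.39, adjusted p = 0.0166).

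Promoter windows in the RefSeq table (GRCm38.p6), from 250 bases before to 50 after a transcription start, matched 6 of the 10 genes: Axin2, Nkd1, Rnf43, Sp5, Tcf7 and Lef1, with 11 windows in all. Lgr5, Notum, Znrf3 and Tbx3 had no entry. The core letters bound by TCF/LEF factors were searched as CTTTGAT and CTTTGTT on both strands, so that ATCAAAG and AACAAAG were counted as well. Of all 32851 windows, 9.33% held at least 1 of them, 3.73% CTTTGAT and 5.85% CTTTGTT. Of the 11 windows of these genes, 1 did, that of Sp5, which holds a match of each kind. The Sp5 window (chr2:70474673-70474972, plus strand) is shown because it carries both matches, in capitals, with the first base of AACAAAG 222 bases before the start and that of CTTTGAT 104 bases before it, and the Axin2 window (chr11:108920099-108920398, plus strand) as that of another gene that rose on both diets and has neither.
Sp5: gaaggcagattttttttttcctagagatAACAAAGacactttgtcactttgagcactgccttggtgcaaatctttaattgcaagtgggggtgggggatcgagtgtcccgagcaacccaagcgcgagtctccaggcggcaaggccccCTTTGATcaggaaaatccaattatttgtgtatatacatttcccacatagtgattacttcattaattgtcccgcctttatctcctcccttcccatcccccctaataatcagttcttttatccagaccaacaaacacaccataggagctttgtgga
Axin2: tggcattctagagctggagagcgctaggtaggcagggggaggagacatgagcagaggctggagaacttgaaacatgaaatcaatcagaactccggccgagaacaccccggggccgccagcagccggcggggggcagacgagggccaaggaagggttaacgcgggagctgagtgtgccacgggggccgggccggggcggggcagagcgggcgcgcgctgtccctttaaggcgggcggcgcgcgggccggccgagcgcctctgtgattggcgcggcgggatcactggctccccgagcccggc
A match in these letters is not evidence of binding, and no match says only that the letters are not in this window.

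Of the TCF/LEF factors in the list, Lef1 rose on both diets, whereas Tcf7 rose on CD and did not pass the test on LPD. Tcf7 (Entrez 21414, chr11:52252371-52283014, minus strand), which encodes TCF1, was at 2.95, 3.07 and 4.06 CPM in CD Vec, 33.7, 37.9 and 28.5 in CD c-MET/β-catenin, 7.24, 7.94 and 9.28 in LPD Vec and 11.6, 9.30 and 8.13 in LPD c-MET/β-catenin. The CD oncogene livers stood far above all others, and the LPD oncogene livers overlapped LPD Vec. Tcf7 rose by 3.31 (SE 0.2, adjusted p = 5.91e-06) on the log2 scale on CD, with 0.24 (SE 0.18, adjusted p = 0.732) on LPD. Lef1 (Entrez 16842, chr3:131110471-131224356, plus strand) was at 0.20, 0.11 and 0.26 CPM in CD Vec, 8.14, 7.83 and 5.05 in CD c-MET/β-catenin, 0.05, 0.21 and 0.15 in LPD Vec and 3.81, 4.0 and 2.23 in LPD c-MET/β-catenin. It was close to absent from Vec livers, at 11 reads over the 3 CD Vec libraries and 9 over the 3 LPD Vec libraries, and present in every oncogene liver. The rise in Lef1 was 5.13 on the log2 scale for CD (SE 0.43, adjusted p = 1.96e-05), with a value of 4.53 for LPD (SE 0.45, adjusted p = 0.000734). Lef1 was tested only because its oncogene libraries passed the filter on low counts, so these p-values describe it and are not support for a rise. From the pooled reads, Lef1 was 36.5 times the Vec level on CD, with an exact 95% interval of 20.3 to 73.5 that covers counting error only, and 24.1 times on LPD, with 12.5 to 53.4.

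T cells also express Tcf7 and Lef1, so a list of 13 T cell markers was read beside them. Their summed level ranged from 14.8 to 24.8 CPM in CD Vec, 15.3 to 22.5 in CD c-MET/β-catenin, 8.59 to 12.9 in LPD Vec and 9.37 to 17.0 in LPD c-MET/β-catenin. The sums of CD Vec and CD c-MET/β-catenin livers overlapped. Cd3d, Cd3e and Cd3g, which define T cells, were at 1.01 CPM or less in every library. Of the 13 markers, 10 were tested, 5 of them, Cd8a included, only because of the oncogene libraries. Cd8a was at 0.10, 0.11 and 0.10 CPM in CD Vec and 1.01, 1.55 and 1.87 in CD c-MET/β-catenin (adjusted p = 0.0013, or 0.0797 with a term for the dataset-number runs). Cd4 had a log2 fold change of -1.60 (adjusted p = 0.0493), which was not called under 15 of 20 alternatives. Their part in the Tcf7 and Lef1 values was not tested.

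The effect of the oncogenes on these genes depended on diet for 5 of the 10, as tested by the interaction of injection and diet, which is the log2 fold change on LPD minus that on CD. All 5 were below 0, against 4.42% of all genes tested. The interaction was -3.06 (SE 0.27, adjusted p = 0.000373) for Tcf7, -1.63 (SE 0.32, adjusted p = 0.0128) for Axin2, -2.40 (SE 0.68, adjusted p = 0.0487) for Lgr5, -1.33 (SE 0.35, adjusted p = 0.0384) for Rnf43 and -0.81 (SE 0.18, adjusted p = 0.0221) for Znrf3. The other 5 were also below 0 but did not pass, at -1.06 for Notum (adjusted p = 0.0523), -1.25 for Sp5 (adjusted p = 0.0751), -1.41 for Nkd1 (adjusted p = 0.103), -0.81 for Tbx3 (adjusted p = 0.457) and -0.61 for Lef1 (adjusted p = 0.639). For Lef1 an approximate 95% interval ran from -2.02 to 0.81, so a weaker as well as a slightly stronger effect on LPD lies within it. The log2 change on LPD was 0.07 of that on CD for Tcf7, between 0.28 and 0.32 for Rnf43, Lgr5, Notum and Tbx3, 0.41 for Znrf3, 0.5 for Axin2, 0.56 for Sp5, 0.67 for Nkd1 and 0.88 for Lef1. The value for Lef1 rests on the few reads of its Vec libraries, and its interaction turned to 0.24 with a term for the dataset-number runs. The calls for Axin2 and Tcf7 were kept whichever library was left out. That for Lgr5 was lost without any 1 library other than CD Vec replicate 2, that for Rnf43 in 9 of 12 such fits and that for Znrf3 in 3 of 12, and with a term for the dataset-number runs only Tcf7 was called. That term left Axin2 at -1.50 (adjusted p = 0.115), and the clock-gene covariate left it at -1.38 (adjusted p = 0.127), where Tcf7, Rnf43 and Notum were called. Lgr5 (adjusted p = 0.0545) and Rnf43 (0.0513) were not called with the replicate block, nor was Lgr5 with no filter on low counts (0.0879).

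**Figure D2:**
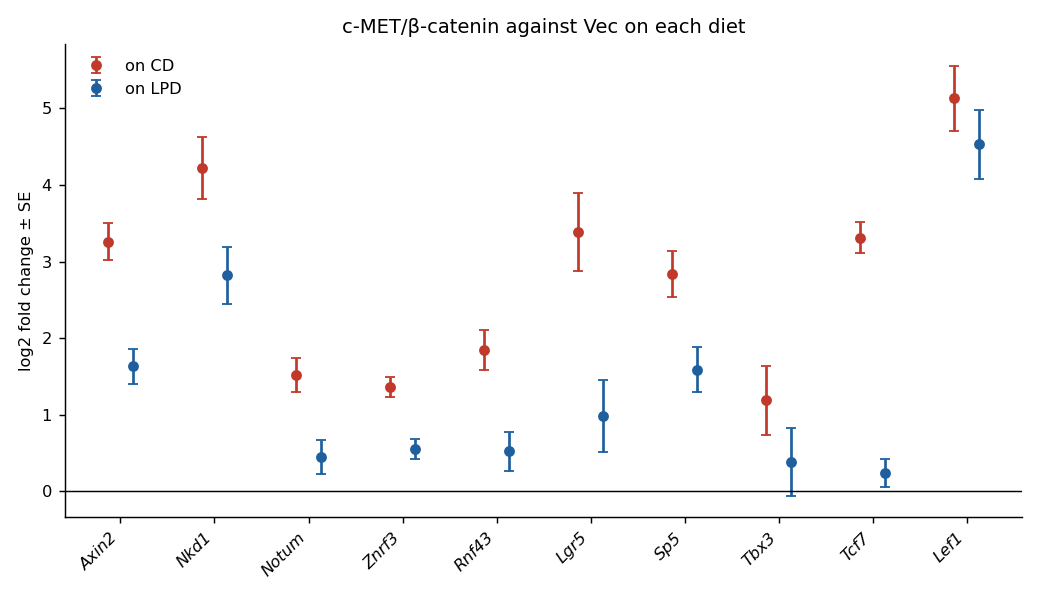
Change from Vec to c-MET/β-catenin livers (log2), with bars of 1 SE, for each gene on CD (red) and on LPD (blue). The LPD value is below the CD value for all 10 genes, by the most for Tcf7 (3.31 against 0.24) and by the least for Lef1 (5.13 against 4.53), whose Vec libraries held 1 to 5 reads each.

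Set against each other directly, 6 of the 10 genes were called lower in LPD than in CD oncogene livers, beside 11.3% of all genes. Without Lef1 the count was 5 of 9. Tcf7 fell by 1.79 on the log2 scale (SE 0.18, adjusted p = 0.00028), Axin2 by 1.20 (SE 0.22, adjusted p = 0.00366), Sp5 by 1.10 (SE 0.27, adjusted p = 0.0149), Lef1 by 1.06 (SE 0.32, adjusted p = 0.0338), Rnf43 by 1.0 (SE 0.25, adjusted p = 0.0158) and Znrf3 by 0.63 (SE 0.13, adjusted p = 0.00576). Values for the others were -1.40 for Lgr5 (adjusted p = 0.0526), -0.82 for Nkd1 (adjusted p = 0.112), -0.37 for Notum (adjusted p = 0.254) and -0.35 for Tbx3 (adjusted p = 0.617). The LPD livers all lay below the CD livers for 8 of the 10 genes, Lef1 included and all but Nkd1 and Notum, as they did for 20.1% of all genes tested. The median over the 10 genes was -1.03, and -0.01 over all genes. The count of calls was 3 when replicate 2 of the CD oncogene group or replicate 3 of the LPD oncogene group was left out, and with a term for the dataset-number runs only Tcf7 was called (-1.56, adjusted p = 0.0073).

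In Vec livers 1 of the 10 genes was called between the diets. Tcf7 was higher on LPD by 1.28 on the log2 scale (SE 0.19, adjusted p = 0.0237), or 2.42-fold, in a comparison in which 0.186% of all genes were called higher. It no longer passed with the replicate block (adjusted p = 0.061), with a term for the dataset-number runs (0.0564) or with only the groups compared (0.0693), nor when CD Vec replicate 2 (1.21, adjusted p = 0.067), LPD Vec replicate 2 (1.30, adjusted p = 0.108) or LPD Vec replicate 3 (1.17, adjusted p = 0.11) was left out. The LPD Vec livers lay above the CD Vec livers without overlap for 5 of the 10 genes, Tcf7, Notum, Nkd1, Rnf43 and Lgr5, beside 8.13% of all genes. Notum had a log2 difference of 0.69 (adjusted p = 0.246), Nkd1 0.58 (adjusted p = 0.663), Rnf43 0.34 (adjusted p = 0.717) and Lgr5 1.01 (adjusted p = 0.549), none past the threshold. Without CD Vec replicate 2, the library in which it was low, the difference for Lgr5 was 0.55. The median over the 10 genes was 0.44, beside -0.03 over all genes. The oncogene and diet comparisons share libraries, so that a high CD oncogene level enters both the CD effect and the diet difference.

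**Figure D3:**
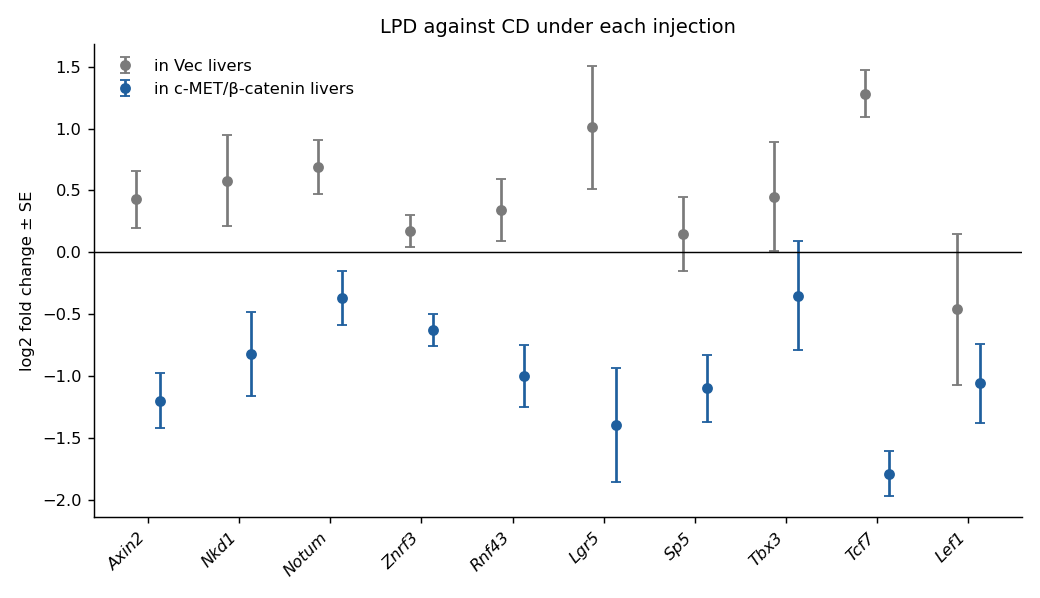
log2 fold change of LPD against CD, with bars of 1 SE, for each gene in Vec livers (grey) and in c-MET/β-catenin livers (blue). Values in Vec livers are above 0 for all genes but Lef1 and pass the threshold for Tcf7 (1.28), and those in oncogene livers are all below 0, from -0.35 (Tbx3) to -1.79 (Tcf7).

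In LPD c-MET/β-catenin, replicate 3 was the lowest for all 10 genes and replicate 1 the highest for 9, all but Lef1. In CD c-MET/β-catenin, replicate 2 was the highest for 6 (Nkd1, Notum, Rnf43, Sp5, Tbx3 and Tcf7) and replicate 1 for the other 4, with replicate 1 lowest for Nkd1, Notum and Rnf43. Mitotic mRNA was likewise highest in CD oncogene livers and next highest in LPD oncogene livers, with 10 proliferation genes such as Mki67 summing to between 5.34 and 18 CPM in CD Vec, 161 and 238 in CD c-MET/β-catenin, 7.69 and 9.16 in LPD Vec and 22.5 and 64.2 in LPD c-MET/β-catenin. Markers of cholangiocytes, 5 in number, summed to 30.8 to 42.1 CPM in CD Vec, 119 to 375 in CD c-MET/β-catenin, 43.9 to 50.8 in LPD Vec and 37.5 to 49.9 in LPD c-MET/β-catenin. For 8 markers of stellate cells and fibroblasts the ranges were 204 to 271, 211 to 472, 216 to 249 and 214 to 280 CPM in the same order. These 8 went both ways on CD, with 3 called higher and 2 lower, beside 18.7% and 16.7% of all genes tested. Col1a1 was at 3.92 and Reln at 1.53 on the log2 scale, against -1.30 for Dcn and -1.42 for Lrat. The part of these genes in the target values was not tested. The share of tumour tissue in each liver was not measured here, and its part in these differences was not tested. Within the second run of dataset numbers all 10 genes were higher in oncogene than in Vec livers on either diet, with a median difference in log2 CPM of 2.74 on CD and 0.91 on LPD, against 3.06 and 0.74 over all libraries. All 10 were lower in LPD than in CD oncogene livers within that run (median -0.87, against -1.03). For LPD against CD in Vec livers, 8 genes were above 0 within the run, Lef1 was below it at -0.53 and Znrf3 was at 0.0 (median 0.48, against 0.52), with Lgr5 at 0.28 against 1.33 over all libraries. All 10 interactions were below 0 (median -1.41, against -1.25), from 1 CD library per injection and so with no test.

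Per kilobase of exon, Notum was the most abundant of the 10 and Lef1 the least in every group. In CD Vec, Notum was at 17.9 ± 2.67 CPM per kb (SD), followed by Tbx3 at 6.09 ± 5.17 and Rnf43 at 4.34 ± 0.0801, which overlapped, and then by Axin2, Tcf7, Znrf3, Sp5 and Nkd1 between 1.41 and 1.12, which overlapped one another in turn. Lgr5 at 0.285 ± 0.184 and Lef1 at 0.0219 ± 0.00842 were below all of these. In CD c-MET/β-catenin, Notum at 51.2 ± 18.4 was followed by Nkd1 at 21.1 ± 10.5, which had been below Sp5 in CD Vec, and by Rnf43, Tbx3, Axin2 and Tcf7 between 15.7 and 12.7, these 5 overlapping in turn. Tcf7 was next after Rnf43 in LPD Vec at 3.11 ± 0.395, and after Sp5 in LPD c-MET/β-catenin at 3.68 ± 0.668.

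Other genes of the pathway were read from lists by role. Of 12 genes of the pericentral hepatocyte programme, a downstream readout, 8 rose and 1 fell on CD, where 18.7% of all genes were called higher and 16.7% lower, and 5 rose on LPD, against 1.15%. The other 7 did not pass on LPD. Glul was at 888, 745 and 994 CPM in CD Vec, 8611, 7323 and 6637 in CD c-MET/β-catenin, 1211, 1037 and 952 in LPD Vec and 4112, 3889 and 2490 in LPD c-MET/β-catenin, and its interaction was -1.39 (adjusted p = 0.0169). That interaction was not called with the run term (-1.21, adjusted p = 0.176) or the clock-gene covariate (-1.35, adjusted p = 0.121). Its groups stood in the same order as those of Axin2. The ammonium transporter Rhbg rose by 3.44 on CD and 2.46 on LPD, the glutamate transporter Slc1a2 by 2.63 and 2.22, and Lect2 by 2.05 and 1.31, all on the log2 scale, with interactions that did not pass (adjusted p = 0.214, 0.501 and 0.198). The call for Lect2 on LPD was lost with the run term (adjusted p = 0.0825), and without any 1 LPD Vec library or replicate 1 or 2 of the LPD oncogene group (adjusted p between 0.0547 and 0.119). The gene that fell, Nr1i3, which encodes the nuclear receptor CAR and is named here after its values were seen, did so by 1.33 on CD (adjusted p = 0.00105), with a call lost under the clock-gene covariate (adjusted p = 0.192). Also named after their values were seen, Cyp2e1 averaged 8011 CPM in CD Vec and 5726 in CD c-MET/β-catenin, and Cyp1a2 699 and 785. For LPD against CD in Vec livers the median of the 12 genes was -0.39, and none was called. Of 9 other reported Wnt targets tested, 4 rose on CD, Cd44, Tnfrsf19, Jag1 and Ccnd1, and none passed on LPD, beside the same 18.7% and 1.15% of all genes. On LPD Tnfrsf19 was at 1.43 (adjusted p = 0.113) and was called with DESeq2 (0.0116) and with only the groups compared (0.0288). With a term for the dataset-number runs the changes of Jag1 and Ccnd1 on CD were 0.27 and 0.78 and were no longer called. Jag1 was also lost with the clock-gene covariate (adjusted p = 0.174) and with only the groups compared (0.0565). Ccnd1 was also lost without CD oncogene replicate 2 (0.96, adjusted p = 0.0918) or CD Vec replicate 2 (1.38, adjusted p = 0.0723).

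Of 11 Wnt ligands and R-spondins tested, 2 rose and 3 fell on CD, where 18.7% of all genes were called higher and 16.7% lower, and none passed on LPD. Wnt5a rose by 1.67 (adjusted p = 0.000695), and the other that rose, Wnt6, named after its values were seen, passed the filter on low counts only because of the oncogene libraries, so that 1 of the 10 remaining ligands rose. Rspo3, the endothelial R-spondin, was at 6.47, 6.48 and 6.09 CPM in CD Vec, 2.60, 2.41 and 2.13 in CD c-MET/β-catenin, 7.24, 7.14 and 5.23 in LPD Vec and 6.40, 5.16 and 6.73 in LPD c-MET/β-catenin. The CD oncogene livers alone were low, with a fall of 1.41 on the log2 scale (adjusted p = 0.000274), and the interaction was 1.31 (adjusted p = 0.016), opposite in sign to that of the targets. Wnt2 fell by 1.78 on CD (adjusted p = 0.00292) with an interaction of 1.69 (adjusted p = 0.0572), Wnt5b fell by 2.15 (adjusted p = 0.000108) with an interaction of 1.80 (adjusted p = 0.0126), and Wnt9b had -0.55 on CD (adjusted p = 0.352). Of 8 endothelial markers 2 were called on CD, both lower, and the list had a median of -0.33. Clec4g fell by 1.09 and Ehd3 by 1.64, with interactions of 1.18 (adjusted p = 0.0172) and 1.54 (adjusted p = 0.0116) that were not called with the run term (adjusted p = 0.205 and 0.134) or the clock-gene covariate (adjusted p = 0.184 and 0.161). The fall of Clec4g was not called with either (adjusted p = 0.0975 and 0.0922). The 8 markers summed to 149 to 293 CPM in CD Vec, 134 to 195 in CD c-MET/β-catenin, 192 to 305 in LPD Vec and 219 to 293 in LPD c-MET/β-catenin. Their part in the Rspo3 and Wnt2 values was not tested. The interactions of Rspo3 and Wnt5b were not called with the run term (adjusted p = 0.117 and 0.176) or the clock-gene covariate (adjusted p = 0.162 and 0.131), and neither was the fall of Wnt2 on CD (adjusted p = 0.152 and 0.242).

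Among 11 receptors tested, 1 rose and 4 fell on CD, and none passed on LPD, beside 18.7% of all genes called higher and 16.7% lower on CD and 1.15% higher on LPD. Lrp5, the co-receptor, rose by 1.62 on CD (adjusted p = 0.00213) with an interaction of -1.76 (adjusted p = 0.0314), while Fzd8 fell by 1.41 and Fzd4 by 1.22. Neither call for Lrp5 was kept with the run term (adjusted p = 0.181 on CD and 0.258 for the interaction) or the clock-gene covariate (0.24 and 0.342), and the interaction was also lost without any 1 LPD library or CD oncogene replicate 1. Those for Fzd8 and Fzd4 were lost with the same additions to the model (adjusted p between 0.066 and 0.221). Of 20 intracellular components, 1 rose and 4 fell on CD and none passed on LPD, beside the same shares of all genes. Ctnnbip1, which encodes ICAT, an inhibitor that keeps β-catenin from TCF factors, was at 17.4, 13.1 and 15.2 CPM in CD Vec, 5.17, 4.61 and 3.97 in CD c-MET/β-catenin, 12.8, 12 and 11.7 in LPD Vec and 14.4, 10.5 and 12.4 in LPD c-MET/β-catenin. Its CD oncogene livers were below all others, with a fall of 1.73 on the log2 scale (adjusted p = 3.84e-05) and an interaction of 1.76 (adjusted p = 0.00321). The co-repressor Tle1 rose by 1.03 (adjusted p = 0.000575, or 0.0963 with the run term). Tle3 fell by 1.13 (adjusted p = 0.0117, or 0.154 with the clock-gene covariate and 0.0745 with only the groups compared).

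Of 8 secreted antagonists tested, Apcdd1, Sfrp2, Dkk2 and Wif1 passed the filter on low counts only because of the oncogene libraries; Wif1 was named after its values were seen. Of the other 4, 2 rose and 1 fell on CD and none passed on LPD, beside 18.7% of all genes called higher and 16.7% lower on CD and 1.15% higher on LPD. Apcdd1, a membrane-bound Wnt inhibitor, was at 0.25, 0 and 0.26 CPM in CD Vec, 7.88, 15.7 and 13.1 in CD c-MET/β-catenin, 0.19, 0.04 and 0.05 in LPD Vec and 15.6, 7.12 and 8.35 in LPD c-MET/β-catenin. Like Lef1 it was close to absent without the oncogenes, and oncogene livers of the diets overlapped (interaction 0.63, adjusted p = 0.746). Sfrp2, a soluble Frizzled-related protein, was at or below 0.15 CPM in all 6 Vec livers, at 5.20, 56.1 and 13.7 in CD c-MET/β-catenin and at 32.2, 34.8 and 10.7 in LPD c-MET/β-catenin, so that its range on LPD lay within that on CD. Dkk2, which blocks the co-receptor, was at 0.46, 5.22 and 1.24 CPM in CD c-MET/β-catenin and at no more than 0.21 in any other library.

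**Figure D4:**
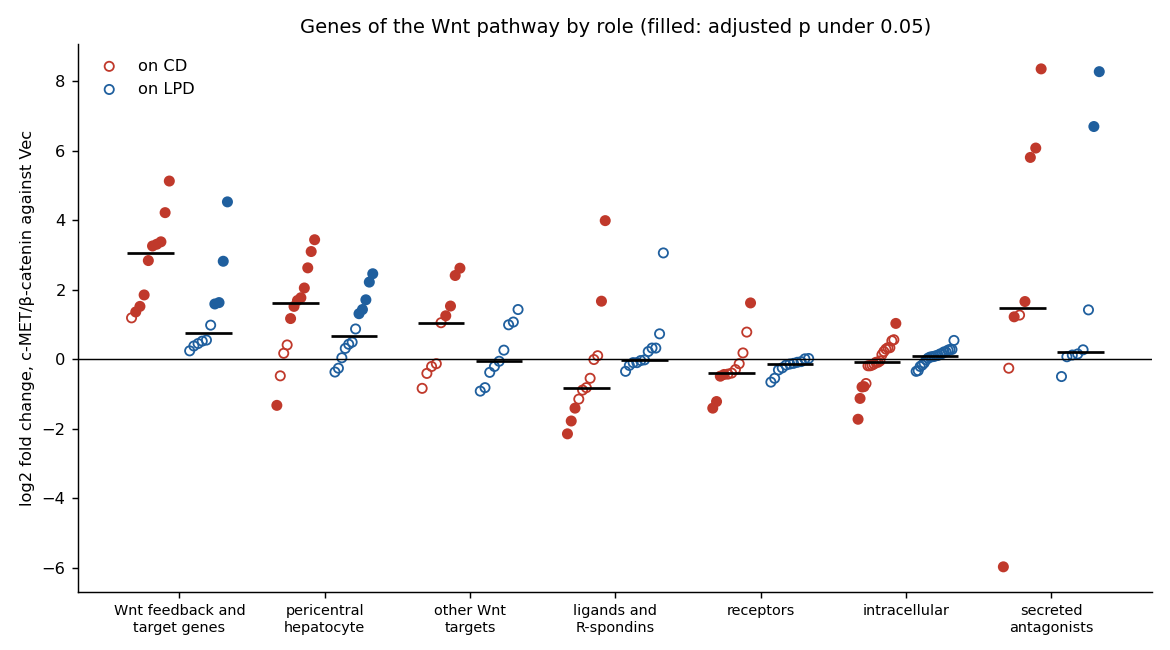
Change from Vec to c-MET/β-catenin livers (log2) of each tested gene of 7 lists by role, on CD (red) and LPD (blue), filled where the adjusted p was under 0.05; short black lines are list medians. The feedback and target genes (median 3.05 on CD, 0.77 on LPD) and the pericentral genes (1.61 and 0.68) lie mostly above 0, while ligands and R-spondins, receptors and intracellular components centre on -0.82, -0.40 and -0.09 on CD and -0.02, -0.14 and 0.09 on LPD; the values furthest from 0 belong to genes with a few reads in the lower group.

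Of 9613 tested genes with a mean of at least 5 CPM, those whose log2 CPM followed the average of the target genes most closely over the 12 libraries included Hacd2 (Pearson r = 0.981), Slc1a5 (0.977), Isyna1 (0.976), Car2 (0.976), Glul (0.974), Ankrd13b (0.973), Tcf4 (0.972), Kctd17 (0.971) and Dyrk3 (0.97). The 12 points share their groups, so these correlations mostly describe group means. Tcf4 here is the gene of that symbol, which encodes an E protein, and not the β-catenin partner Tcf7l2 that is also called TCF4. Slc1a5, a glutamine transporter, averaged 1.77 CPM in CD Vec, 24.1 in CD c-MET/β-catenin, 2.06 in LPD Vec and 9.54 in LPD c-MET/β-catenin. The carbonic anhydrase Car2 averaged 4.23, 44.6, 5.71 and 14.9 CPM in the same groups. Of the 10 target genes, Axin2 was closest to their common average (r = 0.974) and Tbx3 furthest from it (0.753). Each of the 10 is part of that average, which raises its r, so these values are not comparable with those of the genes outside it.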

How the data were processed

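RNA was measured in bulk from 12 mouse livers, and libraries were assigned to the 4 groups by their titles and descriptions. Per the labels and the authors' methods, HISAT2 aligned the reads to mm10 and featureCounts assigned them to genes, and the deposited values are whole-number read counts with no normalization. Versions, strand setting and the handling of reads with several positions are not given in the sources used here, so reads of near-identical or overlapping genes are uncertain. The labels describe ribosomal RNA depletion and the methods mRNA selection. Titles call the vector controls WT, and column names call the chow samples HPD, an abbreviation used for a high-protein diet in other experiments of the study; the chow and vector readings of the labels were kept.

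Identifiers were matched to symbols with RefSeq GRCm38.p6 (25275 genes) and GENCODE M21 (18 more). Counts were filtered with filterByExpr (13947 genes kept, 13232 not), scaled by TMM and tested with the quasi-likelihood test of edgeR 4.0.16 in R 4.3.3 in 1 model of all 4 groups (common dispersion 0.0537), with Benjamini-Hochberg adjustment over all genes and a threshold of 0.05. The script was tested on simulated data. No replicate pair differed by less than sampling noise (chi-square per gene 27.2 or more). Labels do not say more than that libraries come from separate samples, so p-values measure the spread between these samples. Alternatives were total counts, RLE factors, DESeq2 1.42.0, no filter, only the groups compared, a replicate block, dataset-number runs, a clock-gene covariate and leaving out each library.

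The genes and lists were chosen with earlier results of these data known. Named were the 10 target genes; of each other list at most the 4 called genes with the smallest adjusted p on CD, plus Glul, Ctnnb1, Met, Mki67, Wnt2, Wnt9b and Rspo3; and the 10 other genes most correlated with the average target profile, of which 1 is not reported here.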

Additional observations from a re-analysis of the deposited data

Results flagged for a closer look

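The effect of c-MET/β-catenin on the log2 scale differed between the diets, by the test of the interaction, for 5 genes: Tcf7 (-3.06), Lgr5 (-2.40), Axin2 (-1.63), Rnf43 (-1.33) and Znrf3 (-0.81). Each value is the effect on LPD minus that on CD, by edgeR's quasi-likelihood test with adjusted p between 0.000373 and 0.0487. Axin2 and Tcf7 were called in all 12 fits that left out a library, Znrf3 in 9, Rnf43 in 3 and Lgr5 in 1. With a term for the dataset-number runs only Tcf7 of the 5 was called, with adjusted p of 0.115 for Axin2, 0.141 for Znrf3, 0.284 for Rnf43 and 0.293 for Lgr5. With a clock-gene covariate Tcf7 and Rnf43 were called, with 0.127 for Axin2, 0.142 for Znrf3 and 0.178 for Lgr5. The replicate block left Lgr5 at 0.0545 and Rnf43 at 0.0513, and no filter on low counts left Lgr5 at 0.0879, none of them called.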

How the results depend on the processing

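On CD, 9 or 10 of the 10 genes were called higher under every alternative, and 9 to 10 when each library was left out. On LPD the count was 3 with a term for the dataset-number runs and up to 5 with total counts or DESeq2, and 3 to 5 with a library left out. For LPD against CD in Vec livers the 1 call was absent (0 genes) with the replicate block, with the run term and with only the groups compared, and the range was 0 to 1 with a library left out. In oncogene livers the 6 calls became 1 with the run term, and 3 to 7 with a library left out. The 5 interaction calls became 8 with DESeq2, 3 with the replicate block, 3 with the clock covariate, 1 with the run term and 2 to 6 with a library left out. Sp5 in Vec livers turned to -0.02 with the run term and ranged from -0.10 (without LPD Vec replicate 2) to 0.43 with a library left out, and the interaction of Lef1 to 0.24 with the run term; none of these was called in either direction. Why these values moved was not tested. Over all genes, 4933, 184, 43, 2784 and 1243 genes were called in the CD, LPD, Vec, oncogene and interaction comparisons, against 945, 75, 16, 618 and 85 with the run term, 1494, 165, 31, 1331 and 200 with the clock covariate, 4520, 151, 16, 2380 and 812 with the replicate block, and 5380, 476, 338, 3338 and 2042 with DESeq2. With only the groups compared the first 4 were 3014, 505, 3 and 2245. Scaling by total counts took the median of all genes from -0.01 to 0.278 on CD, from 0.01 to 0.121 on LPD and from 0.02 to -0.156 in the interaction, and gave 4469 higher and 1201 lower genes on CD in place of 2603 and 2330; with it 36 group means of the 10 genes moved by less than 1 SD and 4 by more. The same replicate numbers did not pair the libraries: deviations from group means correlated between -0.183 and 0.167 over 18 same-numbered pairs, and 3 of 12 libraries correlated best with their own number. Lef1 is limited by 1 to 5 reads per Vec library.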
